A study of Mus musculus with 48 samples.

Results

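Superoxide dismutases and catalase are the enzymes that remove superoxide and the hydrogen peroxide made from it. The 4 genes described here, Sod1, Sod2, Sod3 and Cat, were chosen by symbol from a table of 47561 genes measured by RNA sequencing in the lungs of 48 mice. Each mouse gave 1 library of messenger RNA, and there were 16 groups of 3 mice, with both sexes of C3H/HeN (C3H, spelled C3H/hen in the labels) and C57Bl/6 (C57B). All were adult inbred mice with no transgene or deletion named, and all stayed 96 h in their air after 1 intraperitoneal injection. The injection was saline or 25 mg/kg aurothioglucose (ATG), which contains gold and blocks the enzyme thioredoxin reductase, and the air was room air or hyperoxia, above 95% oxygen. The text describing the series gives ATG to all mice and names the C57B6/J substrain, whereas the labels name saline mice and the paper names a C57Bl/6N substrain, so the saline groups here rest on the labels. Nothing in the labels says how the mice of a group were housed or related, so p-values measure the spread between these mice.

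Superoxide dismutases turn 2 molecules of superoxide into hydrogen peroxide and oxygen, and catalase turns hydrogen peroxide into water and oxygen. Sod1 encodes the copper and zinc enzyme of the cytosol, Sod2 the manganese enzyme of the mitochondrial matrix, and Sod3 the secreted copper and zinc enzyme that binds to the extracellular matrix, which is abundant in lung and vessel wall. Cat encodes the heme enzyme of the peroxisome. Sod2 is known as a gene induced by inflammatory cytokines through NF-kappaB, and these enzymes are classical parts of the defence of the lung against high oxygen.

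The sequences just before the start sites of Sod1, Sod2 and Cat are shown because Sod2 rose in hyperoxia while Sod1 and Cat fell. They are the 250 bases before each RefSeq start in the GRCm38.p6 assembly, 5′ to 3′ on the strand of the gene, at chr16:90220512-90220761 (plus strand), chr17:13007589-13007838 (plus strand) and chr2:103485154-103485403 (minus strand). Capitals mark every match, on either strand, to the GC box GGGCGG bound by Sp1, the CCAAT box, the TATA box TATAAA, the antioxidant response element core TGACNNNGC bound by Nrf2, the kappaB motif GGANTTTCC and the FOXO motif TGTTTAC.
Sod1: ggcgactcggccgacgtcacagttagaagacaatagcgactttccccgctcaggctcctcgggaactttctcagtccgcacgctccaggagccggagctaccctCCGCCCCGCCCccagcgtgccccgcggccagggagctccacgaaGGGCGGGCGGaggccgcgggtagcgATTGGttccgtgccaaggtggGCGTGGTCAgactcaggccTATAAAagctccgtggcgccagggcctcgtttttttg
Sod2: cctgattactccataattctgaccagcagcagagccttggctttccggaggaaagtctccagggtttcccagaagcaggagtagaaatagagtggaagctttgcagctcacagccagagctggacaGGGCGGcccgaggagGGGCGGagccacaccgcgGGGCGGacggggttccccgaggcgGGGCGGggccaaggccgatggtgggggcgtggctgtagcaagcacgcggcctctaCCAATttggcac
Cat: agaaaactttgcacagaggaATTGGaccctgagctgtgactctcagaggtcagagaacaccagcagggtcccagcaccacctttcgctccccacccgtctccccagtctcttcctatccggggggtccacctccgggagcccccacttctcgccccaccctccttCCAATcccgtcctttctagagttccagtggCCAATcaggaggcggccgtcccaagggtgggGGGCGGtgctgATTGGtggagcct

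Sod1 had 4 matches to the GC box, which overlap in pairs, Sod2 had 4 and Cat had 1. The CCAAT box was matched 1 time in Sod1, 1 time in Sod2 and 4 times in Cat. The TATA box and the antioxidant response element core were matched 1 time each, both in Sod1, and the kappaB and FOXO motifs were matched in none of the 3 windows. Of 32851 mouse promoter windows of the same length, 32.7% held a GC box, 33.8% a CCAAT box, 12.4% the TATA box, 10.2% the antioxidant response element core, 1.07% the kappaB motif and 3.17% the FOXO motif. A match is a description of letters, and these windows do not cover introns or distant elements. The promoter of Sod3 was not analysed here.

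In the GENCODE M21 annotation of GRCm38, Sod1 (ENSMUSG00000022982) lies at chr16:90220754-90226329 on the plus strand, with up to 5 exons in a transcript. Its 3′ end overlaps the antisense gene Scaf4, which had a median of 7.69 FPKM and a highest value of 11.5 FPKM. FPKM divides the fragments of a gene by its transcript length and by the size of the library, so levels are per length and can be set side by side between genes. Sod2 (ENSMUSG00000006818) lies at chr17:13006846-13040063 on the plus strand, with up to 7 exons. Sod3 (ENSMUSG00000072941) lies at chr5:52363791-52371418 on the plus strand, with up to 2 exons. Cat (ENSMUSG00000027187) lies at chr2:103453849-103485160 on the minus strand, with up to 13 exons.

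Sod1 shares sequence with a processed pseudogene, so its FPKM depends on how the authors' software divided reads. Of the 30-base words of its 641-base transcript Sod1-201, 35.5% also occur in Gm8566 at chr6:67205619-67206083, on the plus strand. For the main transcripts of the other members the share of words found in any other gene was 3.82% for Sod2, 0.539% for Sod3 and 0.0387% for Cat. Over all annotated transcripts of each gene, which the deposited value per gene may cover, the share was 27.0% for Sod2, most of it with AC166110.4 and Rps6ka2, against 5.57% for Sod1, 0.539% for Sod3 and 0.0384% for Cat. The paper gives paired reads longer than these words, so the share of words is not the share of reads in doubt. The longest stretch shared exactly by Sod1 and Gm8566 is 122 bases long. It runs from base 141 to 262 of Sod1-201 and lies within the coding bases 105 to 569. It is shown because its letters alone cannot tell Sod1 from Gm8566. The reads given by the paper are longer than this stretch, so a read over it also covers bases outside it.
Sod1 and Gm8566: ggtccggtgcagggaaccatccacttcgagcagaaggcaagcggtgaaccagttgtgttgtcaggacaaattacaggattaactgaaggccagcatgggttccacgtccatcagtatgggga

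Gm8566 was listed at 244 to 484 FPKM, with a median of 339 FPKM, where Sod1 was at 284 to 562 FPKM. Each result for Sod1 was therefore also computed with the fragments of Sod1 and Gm8566 added up, an alternative chosen after seeing the data. All 13 planned comparisons of Sod1 kept their direction and their side of the threshold.

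As to the series as a whole, no 2 lungs had identical values, and the sum of FPKM over genes was 510933 to 748290 per lung. Lung markers were present in all 48 libraries, with Sftpc of type 2 cells at 3000 FPKM or more, Scgb1a1 of club cells at 6650 FPKM or more and Ager of type 1 cells at 612 FPKM or more. Scgb1a1 alone made up 1.2% to 30.2% of the sum, which bears on FPKM as a share of all transcripts. The sequencing depth is not given by FPKM values, so precision comes from the spread between mice. Genes of the sex chromosomes are at 0 in the table, and the sex labels could not be checked.

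Sod1 was the most abundant of the 4 transcripts in all 48 lungs. In the 24 room air lungs it ranged from 365 to 562 FPKM, with a median of 461 FPKM. Cat followed with 110 to 171 FPKM and a median of 134 FPKM, and Sod3 with 87.6 to 163 FPKM and a median of 122 FPKM. Sod3 was above Cat in 10 of the 24 room air lungs, so their order was not fixed. Sod2 was the lowest of the 4 in all 24 room air lungs, at 21.2 to 35.7 FPKM with a median of 26.2 FPKM, and did not overlap with the other genes.

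In hyperoxia the order below Sod1 changed. Sod1 remained the highest in all 24 hyperoxia lungs, at 284 to 549 FPKM with a median of 359 FPKM. Sod3 was at 29.6 to 169 FPKM with a median of 73.3 FPKM, and Cat at 40.2 to 113 FPKM with a median of 76.1 FPKM. Sod2 spread from 32.9 to 109 FPKM around a median of 47.8 FPKM. It was the lowest of the 4 in 18 of 24 hyperoxia lungs, against 4 lungs for Cat and 2 for Sod3. The FPKM of the 4 genes summed to 657 to 823, with a median of 740.1, in room air and to 456 to 891, with a median of 559, in hyperoxia. Within that sum Sod2 made up 3.01% to 4.58% in room air and 4.77% to 21.0% in hyperoxia.

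**Figure D1:**
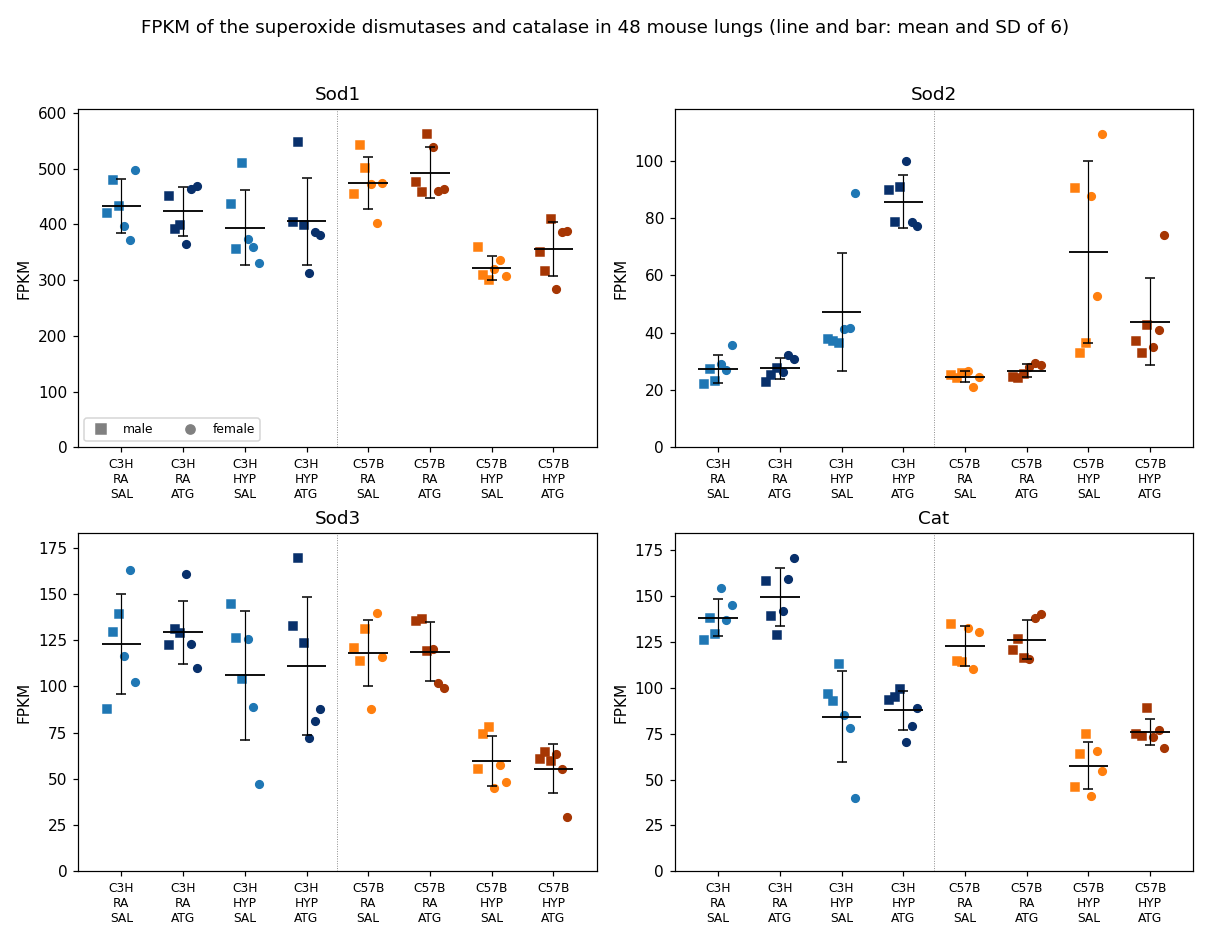
FPKM (y axis, linear from 0) of Sod1, Sod2, Sod3 and Cat in each of 48 lungs, by strain, air (RA, room air; HYP, hyperoxia) and injection (SAL, saline; ATG). Squares are males, circles are females, and the line and bar are the mean and SD of 6 mice. Sod2 was at 21.2 to 35.7 FPKM in room air and at 32.9 to 109 FPKM in hyperoxia, while Cat was at 110 to 171 and at 40.2 to 113 FPKM.

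The first comparison asked how hyperoxia changed the 4 transcripts in the saline mice. Sod2 rose 2-fold, and Cat, Sod3 and Sod1 fell. Changes are given as log2 fold changes of FPKM + 1 fitted with limma across all genes, with the standard error (SE) and the Benjamini-Hochberg adjusted p. Of 16321 genes tested, 60.1% passed the threshold of 0.05, in either direction, so that a call alone sets these genes apart from few others. All 4 genes passed, as did all 4 in the ATG mice below, where 61.8% of 16206 genes passed.

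Cat, the peroxisomal enzyme, was at 126 to 154 FPKM (median 138) in the 6 C3H saline room air lungs and at 40.2 to 113 FPKM (median 88.9) in the 6 C3H saline hyperoxia lungs. In C57B saline lungs it was at 110 to 135 FPKM (median 123) in room air and at 41.0 to 74.9 FPKM (median 59.2) in hyperoxia. The room air and hyperoxia lungs did not overlap in either strain. Over both strains Cat fell by 0.94 on the log2 scale (SE 0.11, limma adjusted p = 4.21e-07, n = 12 and 12). In the ATG mice, which share no library with the saline mice, Cat fell by 0.75 (SE 0.054, limma adjusted p = 2.29e-10), with 129 to 171 FPKM against 70.6 to 99.3 FPKM in C3H and 116 to 140 FPKM against 67.4 to 88.7 FPKM in C57B. Cat was thus lower in all 24 hyperoxia lungs than in any room air lung of the same strain and injection.

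Sod2, the mitochondrial enzyme, was the member that rose. Its log2 change was 1.00 (SE 0.16, limma adjusted p = 1.59e-05) in saline mice and 1.13 (SE 0.091, limma adjusted p = 1.25e-09) in ATG mice. In each of the 4 combinations of strain and injection all 6 hyperoxia lungs were above all 6 room air lungs. An exact two-sided permutation test of 6 against 6 mice gave p = 0.00216 for each of these 4 combinations, the smallest value this design allows. It was 1 of 48 such tests over the 4 genes, and the adjusted value over the 48 was 0.00741. The same smallest p was found for Cat in its 4 combinations, and for Sod1 and Sod3 in C57B after either injection. The share of all genes without overlap was not counted for any comparison. In limma 60.1% of all genes passed for hyperoxia in saline mice and 61.8% in ATG mice, over both strains. A limma call is another measure than separation, and separation is not read as setting these genes apart.

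The individual lungs show that the rise of Sod2 was uneven. In C3H saline hyperoxia, the 3 male lungs were at 37.8, 37.1 and 36.4 FPKM and the 3 female lungs at 41.1, 41.5 and 88.9 FPKM. In C57B saline hyperoxia, the 3 male lungs were at 90.3, 33.0 and 36.5 FPKM and the 3 female lungs at 87.5, 52.9 and 109 FPKM. Above 80 FPKM were 1 C3H and 3 C57B lungs, while the lowest lungs, at 36.4 FPKM in C3H and 33.0 FPKM in C57B, were near the highest room air lungs, at 35.7 and 26.4 FPKM. The SD of the 6 lungs was 20.6 FPKM in C3H and 31.7 FPKM in C57B. In saline room air it was 4.88 FPKM in C3H and 1.88 FPKM in C57B. One C3H female, mouse 33, was far above the other 5 C3H lungs, which were themselves above every C3H saline room air lung. The C3H saline change of 0.70 (SE 0.22, limma adjusted p = 0.0174) was 0.52 without that mouse (limma adjusted p = 0.0575). It was 0.54 with median ratio scaling (limma adjusted p = 0.0808) and 0.53 with quantile normalization (limma adjusted p = 0.051), and passed at 0.70 with all 48 mice in 1 fit (limma adjusted p = 0.00277). In C3H saline mice 37.8% of genes passed, and in C57B saline mice, where the change of Sod2 was 1.30 (SE 0.22, limma adjusted p = 5.36e-05), 55.5% passed.

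Sod3, the secreted enzyme, fell by 0.63 on the log2 scale in saline mice (SE 0.14, limma adjusted p = 0.000509) and by 0.69 in ATG mice (SE 0.098, limma adjusted p = 3.34e-06). The fall passed the threshold in C57B and not in C3H. In C57B saline lungs Sod3 was at 87.8 to 140.0 FPKM (median 119) in room air and at 44.9 to 78.2 FPKM (median 56.3) in hyperoxia, with no overlap. In C3H saline lungs it was at 87.6 to 163 FPKM (median 123) in room air and at 47.0 to 145 FPKM (median 115) in hyperoxia, with broad overlap. The log2 change was -0.99 in C57B (SE 0.19, limma adjusted p = 0.000215) and -0.27 in C3H (SE 0.19, limma adjusted p = 0.291).

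Sod1, the cytosolic enzyme, fell by 0.35 in saline mice (SE 0.067, limma adjusted p = 0.000155) and by 0.28 in ATG mice (SE 0.076, limma adjusted p = 0.00355). In C57B saline lungs it was at 403 to 542 FPKM in room air and at 300.0 to 359 FPKM in hyperoxia, with no overlap. In C3H saline lungs it was at 372 to 497 FPKM in room air and at 331 to 509 FPKM in hyperoxia, with overlap. The log2 change was -0.56 in C57B (SE 0.095, limma adjusted p = 5.58e-05) and -0.14 in C3H (SE 0.095, limma adjusted p = 0.246). The C3H value depended on scaling and passed the threshold at -0.30 with median ratio scaling (limma adjusted p = 0.0279) and at -0.35 with quantile normalization (limma adjusted p = 0.00581). The pseudogene Gm8566 fell as well, by 0.26 (SE 0.078, limma adjusted p = 0.00689), and the sum of Sod1 and Gm8566 fell by 0.32 (limma adjusted p = 0.000596).

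In a whole lung, fewer cells of a type and less RNA per cell cannot be told apart, and the markers of several cell types moved with hyperoxia. The summed FPKM of 5 type 2 cell markers had a median of 34500 in room air and 10700 in hyperoxia, and 4 of 5 fell and 1 rose in saline mice. All 3 club cell, all 4 B cell, all 4 T cell and all 3 erythroid markers tested fell, as did 4 of 5 cardiac muscle, 3 of 5 type 1 cell, 2 of 4 ciliated cell and 1 of 4 adipocyte markers, with no rise in these lists. All 5 neutrophil markers, 3 of 5 smooth muscle markers and 4 of 5 alveolar macrophage markers rose, and 1 alveolar macrophage marker fell. Of the 4 endothelial and the 4 fibroblast markers, 1 of each list rose and 1 fell. In ATG mice 4 of 5 neutrophil markers rose and 4 of 5 type 2 cell markers fell. The part of these shifts in the changes of the 4 enzymes was not tested.

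**Figure D2:**
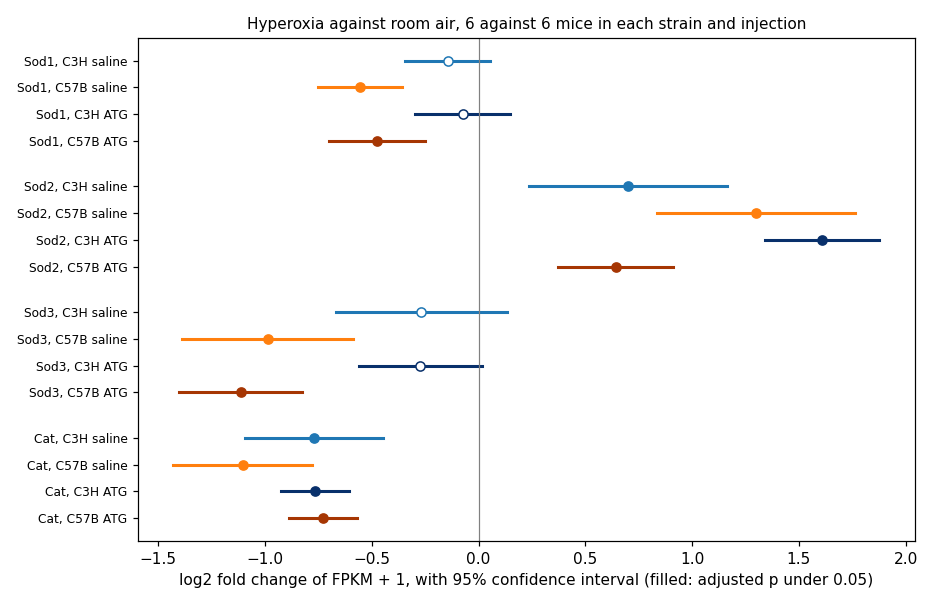
Log2 fold change of FPKM + 1 in hyperoxia against room air (x axis) for Sod1, Sod2, Sod3 and Cat, by strain and injection, with bars for the 95% confidence interval from limma. Sod2 was above 0 in all 4 combinations, from 0.64 in C57B ATG mice to 1.61 in C3H ATG mice, and Cat was below 0 in all 4, from -0.73 to -1.10.

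The next comparison asked whether the effect of hyperoxia differed between the strains. The difference was computed as the log2 change in C3H minus that in C57B. In saline mice 11.5% of genes passed in this comparison, and none of the 4 members did. Sod1 had a difference of 0.41 (SE 0.13, limma adjusted p = 0.0524), Sod3 of 0.72 (SE 0.27, limma adjusted p = 0.0887), Cat of 0.33 (SE 0.22, limma adjusted p = 0.335) and Sod2 of -0.60 (SE 0.31, limma adjusted p = 0.216). The median over all genes was 0.15. Median ratio scaling, which removes that shift, gave 0.22 for Sod1 (limma adjusted p = 0.361) and 0.53 for Sod3 (limma adjusted p = 0.191). With all 48 mice in 1 fit both passed, Sod1 with a limma adjusted p of 0.0425 and Sod3 with one of 0.0383. With each of the 24 saline mice left out in turn, Sod3 passed without mouse 33, at 0.91 (limma adjusted p = 0.0107), and Sod1 passed 7 times, without mice 2, 8, 13, 19, 27, 33 or 38, with limma adjusted p-values from 0.023 to 0.0486.

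The same difference in ATG mice rests on another 24 lungs and was added after seeing the data. Here 13.3% of genes passed, among them Sod2 and Sod3. Sod3 had a difference of 0.84 (SE 0.20, limma adjusted p = 0.00724), with a change of -1.11 in C57B (SE 0.14, limma adjusted p = 9.8e-07) and of -0.27 in C3H (SE 0.14, limma adjusted p = 0.111). The C3H change of Sod3 passed the threshold at -0.41 with median ratio scaling (limma adjusted p = 0.0223) and at -0.52 with quantile normalization (limma adjusted p = 0.00393), and also without mouse 48, a C57B mouse in the same fit (limma adjusted p = 0.0208). Sod1 had a difference of 0.40 (SE 0.15, limma adjusted p = 0.0861), with -0.48 in C57B (SE 0.11, limma adjusted p = 0.000828) and -0.08 in C3H (SE 0.11, limma adjusted p = 0.599). With quantile normalization Sod1 passed both for the difference, at 0.42 (limma adjusted p = 0.0366), and for the C3H change, at -0.28 (limma adjusted p = 0.0182). Median ratio scaling gave 0.33 (limma adjusted p = 0.211) and -0.21 (limma adjusted p = 0.155). Cat had a difference of -0.04 (SE 0.11, limma adjusted p = 0.85), with a 95% confidence interval from -0.26 to 0.19.

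Sod2 in the ATG mice had a difference of 0.97 (SE 0.18, limma adjusted p = 0.00161), with the larger rise in C3H. The change was 1.61 in C3H ATG mice (SE 0.13, limma adjusted p = 3.84e-09) and 0.64 in C57B ATG mice (SE 0.13, limma adjusted p = 0.000266), where 47.9% and 56.2% of genes passed. With each of the 24 ATG mice left out in turn, Sod2 and Sod3 passed every time, with differences of 0.86 to 1.13 and of 0.68 to 0.94.

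Within hyperoxia, the levels of the strains can be compared directly, although these comparisons were not planned. In saline hyperoxia, where 27.2% of genes passed, Sod3 was 0.76 higher in C3H on the log2 scale (SE 0.19, limma adjusted p = 0.00567). The 6 C3H lungs were at 145, 126, 104, 125, 88.9 and 47.0 FPKM and the 6 C57B lungs at 55.2, 74.5, 78.2, 44.9, 57.5 and 48.6 FPKM, so that 5 of 6 C3H lungs were above all C57B lungs. The low C3H lung was that of mouse 33. Cat was 0.51 higher in C3H (SE 0.16, limma adjusted p = 0.0198) and Sod1 0.28 higher (SE 0.095, limma adjusted p = 0.0341). With each of the 24 saline mice left out in turn the differences stayed at 0.41 to 0.67 for Cat and 0.22 to 0.35 for Sod1. Both calls were lost without some single mice. Sod1 missed the threshold 8 times, without mice 7, 9, 20, 21, 31, 32, 43 or 45 (limma adjusted p up to 0.105), and Cat 5 times, without mice 9, 19, 31, 32 or 43 (limma adjusted p up to 0.0676). Sod1 also missed it with median ratio scaling, at 0.20 (limma adjusted p = 0.162), and passed with quantile normalization (limma adjusted p = 0.00806) and all 48 mice (limma adjusted p = 0.032). Cat passed with median ratio scaling (limma adjusted p = 0.0325), quantile normalization (limma adjusted p = 0.0211) and all 48 mice (limma adjusted p = 0.0018). The exact two-sided permutation test gave p = 0.0498 for Cat, 0.013 for Sod1 and 0.0173 for Sod3. Adjusted over the 48 tests, these were 0.108, 0.0347 and 0.0437. Cat was at 40.2 to 113 FPKM in C3H and at 41.0 to 74.9 FPKM in C57B, with mouse 33 below all C57B lungs. Sod2 had a difference of -0.46 (SE 0.22, limma adjusted p = 0.13).

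In ATG hyperoxia, where 28.3% of genes passed, Sod3 was at 133, 169, 124, 72.1, 81.2 and 87.9 FPKM in C3H and at 60.8, 64.4, 59.8, 63.3, 55.6 and 29.6 FPKM in C57B. The strains did not overlap, and the log2 difference was 0.97 (SE 0.14, limma adjusted p = 2.42e-05). Sod2 did not overlap between the strains either. It was at 89.6, 78.6 and 90.9 FPKM in C3H males and 99.7, 78.4 and 77.1 FPKM in C3H females, against 37.0, 32.9 and 42.6 FPKM in C57B males and 35.1, 40.9 and 73.9 FPKM in C57B females. The difference was 1.00 (SE 0.13, limma adjusted p = 6.25e-06), and the exact two-sided permutation test gave p = 0.00216 for both Sod2 and Sod3. Cat had a difference of 0.20 (SE 0.076, limma adjusted p = 0.0549), which passed without mice 4, 24, 28, 34 or 40 (lowest limma adjusted p = 0.0253). It missed with median ratio scaling (limma adjusted p = 0.0967), quantile normalization (limma adjusted p = 0.0982) and all 48 mice (limma adjusted p = 0.26). Sod1 had a difference of 0.18 (SE 0.11, limma adjusted p = 0.229), which passed at 0.26 with quantile normalization (limma adjusted p = 0.0414). Sod1 missed with median ratio scaling (limma adjusted p = 0.373) and all 48 mice (limma adjusted p = 0.207). The exact two-sided permutation test gave p = 0.0519 for Cat and 0.219 for Sod1.

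Markers of several cell types differed between the same lungs. The summed FPKM of the 4 endothelial markers did not overlap between the strains, at 1170 to 1560 in C3H and 665 to 983 in C57B in saline hyperoxia and at 819 to 1410 and 688 to 773 in ATG hyperoxia. The sum of the 3 club cell markers was 27200 to 42100 in C3H and 6940 to 17400 in C57B in saline hyperoxia, and 28100 to 43500 and 9670 to 31800 in ATG hyperoxia. Their part in the strain difference of Sod3 was not tested. In ATG hyperoxia the summed FPKM of the 5 alveolar macrophage markers was 96.8 to 445 in C3H and 675 to 1700 in C57B. The summed FPKM of the 5 neutrophil markers was 157 to 2880 in C3H and 232 to 1070 in C57B, and all 5 had a larger hyperoxia change in C3H than in C57B ATG mice. Those changes start from unlike levels. In ATG room air the neutrophil sum was 59.9 to 261 (median 143) in C3H and 222 to 3620 (median 923) in C57B. The part of these leukocyte markers in the strain difference of Sod2 was not tested. The lowest neutrophil sum of these 12 lungs, 157, was in a C3H male, mouse 11, whose Sod2 was 78.6 FPKM.

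ATG was then compared with saline. In room air 0.0185% of 16228 genes passed and none of the members did. Their log2 differences were between 0.01 for Sod1 and 0.07 for Cat, and the widest 95% confidence interval, that of Sod3, ran from -0.15 to 0.25. The difference of the ATG effect between strains in room air passed for 0% of genes in limma, with 743 genes at an unadjusted p under 0.05 and 2 genes past the threshold without the filter on low values. Sod2 was at 22.0 to 35.7 FPKM in C3H saline and at 22.8 to 32.2 FPKM in C3H ATG room air lungs. In C57B it was at 21.2 to 26.4 FPKM and at 24.2 to 29.3 FPKM.

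In hyperoxia 5.47% of 15860 genes passed for ATG against saline over both strains, again with none of the members. Cat had the lowest unadjusted p, with a difference of 0.27 (SE 0.11, limma adjusted p = 0.157). The strain by ATG difference in hyperoxia passed for 0.416% of genes, and for Sod2 it was 1.47 (SE 0.34, limma adjusted p = 0.0772). That value moved across the threshold with the fit. It passed with all 48 mice in 1 fit (limma adjusted p = 0.0019) and in 4 of the 24 fits that each left out 1 mouse, those without mice 20, 33, 44 or 48, with a limma adjusted p of 0.0134 without mouse 33.

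In the C3H hyperoxia lungs Sod2 was higher after ATG, by 0.92 on the log2 scale (SE 0.24, limma adjusted p = 0.0461), where 2.65% of genes passed. In FPKM the mean was 85.7 ± 9.14 (SD, n = 6) after ATG and 47.1 ± 20.6 (SD, n = 6) after saline, and 3 ATG lungs were above all saline lungs (exact two-sided permutation p = 0.00866, 0.0277 adjusted over the 48 tests). The size of the difference varied less than the call. With each of the 24 hyperoxia mice left out in turn it was 0.83 to 1.11, and it passed 8 times, without mice 19, 20, 21, 33, 44, 45, 46 or 48. The limma adjusted p over the 24 fits ran from 0.0102 without mouse 33 to 0.132 without mouse 32. The difference missed the threshold at 0.89 with median ratio scaling (limma adjusted p = 0.0809) and at 0.87 with quantile normalization (limma adjusted p = 0.0534), and passed with all 48 mice in 1 fit (limma adjusted p = 0.00281). In the C57B hyperoxia lungs, where 0.864% of genes passed, Sod2 had a difference of -0.54 (SE 0.24, limma adjusted p = 0.228). Its mean was 43.8 ± 15.2 FPKM (SD, n = 6) after ATG and 68.2 ± 31.7 FPKM (SD, n = 6) after saline, with overlap.

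Cat in the C57B hyperoxia lungs was at 67.4 to 88.7 FPKM after ATG and at 41.0 to 74.9 FPKM after saline. The difference was 0.42 on the log2 scale (SE 0.15, limma adjusted p = 0.158), and the exact two-sided permutation test gave p = 0.0108, or 0.0324 adjusted over the 48 tests. The unadjusted limma p was 0.0141. The adjusted values fell on different sides of 0.05, with limma adjusted over 15860 genes and the exact test over 48 tests. In C3H hyperoxia the difference of Cat was 0.11 (SE 0.15, limma adjusted p = 0.785).

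The hyperoxia effect in ATG mice minus that in saline mice passed for 2.77% of 16994 genes and for none of the members, with differences from -0.07 for Sod3 to 0.19 for Cat. A contrast added after seeing the data asked whether the strain difference in the hyperoxia effect itself differed between ATG and saline mice. It passed for 0.0353% of genes, and Sod2 had 1.57 (SE 0.37, 95% confidence interval 0.81 to 2.33, limma adjusted p = 0.166). It passed in 3 of the 48 fits that each left out 1 mouse, those without mice 33, 44 or 48. Sod3 had 0.12 (SE 0.35, limma adjusted p = 0.927), Sod1 -0.01 (SE 0.20, limma adjusted p = 0.99) and Cat -0.37 (SE 0.25, limma adjusted p = 0.606).

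**Figure D3:**
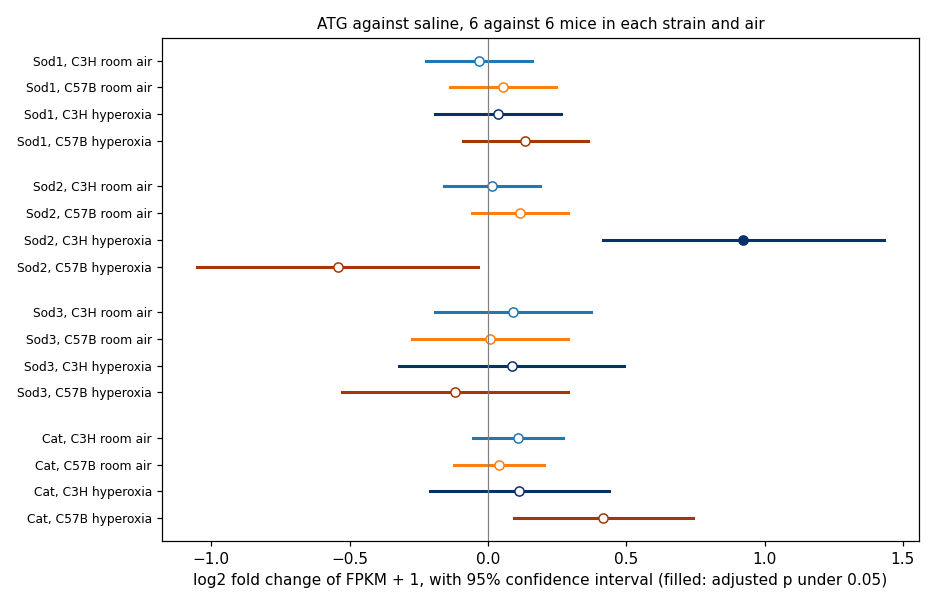
Log2 difference of FPKM + 1, ATG minus saline (x axis), for Sod1, Sod2, Sod3 and Cat, by strain and air, with bars for the 95% confidence interval from limma. In room air all members were close to 0, and in hyperoxia Sod2 was at 0.92 in C3H and at -0.54 in C57B.

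A ratio of 2 members within a lung does not change with the scaling of the library. The ratio of Sod2 to Cat, the enzyme that makes peroxide in mitochondria to the one that removes it in peroxisomes, was 0.144 to 0.246 (median 0.197) in the 24 room air lungs. In the 24 hyperoxia lungs it was 0.323 to 2.21 (median 0.656), with no overlap between airs. Sod2 exceeded Cat in 0 room air lungs and in 6 hyperoxia lungs. These were mouse 19, mouse 43 and mouse 45 of C57B saline, at 1.97, 2.13 and 2.00, mouse 33 of C3H saline, at 2.21, mouse 34 of C3H ATG, at 1.41, and mouse 48 of C57B ATG, at 1.10. In 4 of them, mice 19, 33, 43 and 45, Cat was also low, at 45.7, 40.2, 41.0 and 54.6 FPKM. The C3H ATG hyperoxia lungs were close together at 0.829 to 1.41 (median 0.939), whereas the C3H saline hyperoxia lungs were at 0.323 to 2.21 (median 0.439).

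**Figure D4:**
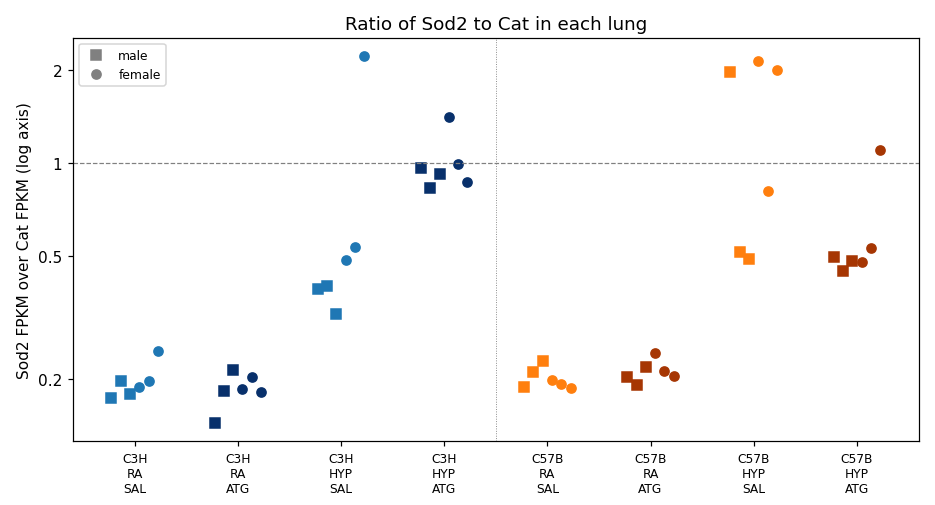
Ratio of Sod2 to Cat FPKM within each of 48 lungs (y axis, log scale), by strain, air and injection, with squares for males and circles for females. The 24 room air lungs lie between 0.144 and 0.246 and the 24 hyperoxia lungs between 0.323 and 2.21.

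The baseline comparisons used the 12 saline room air lungs and asked whether strain or sex set the level of the enzymes. None of the members passed for strain, where 11.8% of 15546 genes did, for sex (0.669%) or for the strain by sex difference (0%). In the last of these limma gave 2538 genes at an unadjusted p under 0.05, and other settings called 5 genes (pseudocount 0.1), 2 (no filter), 2 (no trend) and 748 (all 48 mice). Cat was 0.17 higher in C3H on the log2 scale (SE 0.084, limma adjusted p = 0.219), with 138 ± 10.3 FPKM (SD, n = 6) in C3H and 123 ± 10.9 FPKM (SD, n = 6) in C57B. Its 95% confidence interval ran from -0.01 to 0.36. For Sod2 the difference was 0.14 (SE 0.10, limma adjusted p = 0.422), for Sod1 -0.13 (SE 0.097) and for Sod3 0.04 (SE 0.16). The median over all genes was -0.10, and with median ratio scaling the differences were 0.28 for Cat (limma adjusted p = 0.0555), 0.24 for Sod2 (limma adjusted p = 0.109), 0.15 for Sod3 and -0.02 for Sod1. Male minus female differences were -0.13 for Sod2, -0.09 for Cat, 0.01 for Sod3 and 0.12 for Sod1. For strain at baseline, the exact two-sided permutation test of Cat gave p = 0.039, or 0.0891 adjusted over the 48 tests. In ATG room air lungs the mean of Cat was 149.5 FPKM in C3H and 126.3 FPKM in C57B (exact p = 0.013, 0.0347 adjusted). Sod1 was at 423.1 and 492.7 FPKM there (exact p = 0.026, 0.0624 adjusted), and exact p was 0.639 for Sod2 and 0.297 for Sod3.

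Over all 48 lungs, 41.6% of 16994 genes differed between strains. Sod3 was 0.47 higher in C3H (SE 0.087, limma adjusted p = 2.77e-05) and Cat 0.28 higher (SE 0.062, limma adjusted p = 0.000392). Sod2 had a difference of 0.18 (SE 0.094, limma adjusted p = 0.128) and Sod1 of 0.03 (SE 0.05, limma adjusted p = 0.708). These values average over conditions. The C3H to C57B ratio of mean Sod3 FPKM was 1.04 in saline and 1.09 in ATG room air, against 1.77 and 2.0 in hyperoxia. For Cat these ratios were 1.13 and 1.18 in room air and 1.46 and 1.15 in hyperoxia.

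Sex was also compared as a modifier of the hyperoxia effect, computed in males minus females. It passed for 0.0368% of genes in saline mice and 0.197% in ATG mice, without any member. The difference of Cat was 0.50 in saline mice (SE 0.22, limma adjusted p = 0.241) and 0.32 in ATG mice (SE 0.11, limma adjusted p = 0.323), with the smaller fall in males in both. With median ratio scaling these were 0.34 and 0.29. The difference of Sod3 was 0.52 in saline mice (SE 0.27, limma adjusted p = 0.31) and 0.46 in ATG mice (SE 0.20, limma adjusted p = 0.486). In ATG hyperoxia the 3 males and 3 females were at 124 to 169 and 72.1 to 87.9 FPKM of Sod3 in C3H, and at 59.8 to 64.4 and 29.6 to 63.3 FPKM, with overlap, in C57B. In saline hyperoxia they were at 104 to 145 and 47.0 to 125 FPKM in C3H and at 55.2 to 78.2 and 44.9 to 57.5 FPKM in C57B, with overlap in both strains.

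The transcripts whose pattern was most like each member were found by Pearson's r of log2(FPKM + 1) over the 48 lungs, among 14122 genes with at least 1 FPKM in at least 24 lungs. These values describe lungs that share the exposure and carry no test. The chemokine Cxcl1 was most like Sod2 (r = 0.96), followed by the acute phase protein Saa3 (r = 0.932) and the endothelial adhesion molecule Selp (r = 0.932). Cxcl1 was at 0.169 to 3.43 FPKM in room air and at 2.79 to 693 FPKM in hyperoxia. It was highest in mouse 33, at 693 FPKM, and at 501 FPKM in mouse 19, where Sod2 was 88.9 and 90.3 FPKM. In mice 20 and 21, where Sod2 was 33.0 and 36.5 FPKM, it was at 3.2 and 2.79 FPKM. The 6 C3H ATG hyperoxia lungs were at 94.0 to 310.0 FPKM of Cxcl1, and the C57B ATG hyperoxia lungs at 8.09 to 68.6 FPKM.

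Cat was most like Mettl7a1 (r = 0.951), Kdelc2 (r = 0.94) and the glutathione transferase Gstt1 (r = 0.937). Gstt1 was at 80.2 to 107 FPKM in room air and at 14.5 to 52.7 FPKM in hyperoxia, without overlap. Sod3 was most like Dynll2 (r = 0.894), a dynein light chain, Tnfsf13b (r = 0.889), the B cell survival factor BAFF, and Rasgrp3 (r = 0.884). Sod1 was most like Skp1a (r = 0.853), a subunit of ubiquitin ligases, its own pseudogene Gm8566 (r = 0.853) and Grcc10 (r = 0.845).

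Between members, the closest pair in hyperoxia was Sod3 and Cat, with r = 0.729 and Spearman's rho = 0.842 over 24 lungs. Without the 2 lungs farthest from the median of Sod3, r was 0.792. Within the strains r was 0.827 in C3H and 0.338 in C57B, with 12 lungs each, and without the 2 farthest lungs of each it was 0.461 and 0.612, so the order of the strains rests on those lungs. In room air it was -0.129. Sod2 and Cat had r = -0.385 over the hyperoxia lungs, with -0.392 in C3H and -0.77 in C57B. These values describe 6 pairs of members, and the lungs share their strain, sex and injection.

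The lungs with high Sod2 were in part those with high neutrophil markers. The neutrophil sum was 157 to 6270 FPKM in hyperoxia, with a median of 559 FPKM, and 59.9 to 3620 FPKM in room air. Mice 33, 19, 45 and 43 had the highest sums, at 6265, 4853, 4124 and 3966 FPKM, with Sod2 at 88.9, 90.3, 109 and 87.5 FPKM. The C3H ATG lungs of mice 10 and 12, with Sod2 at 89.6 and 90.9 FPKM, had sums of 751 and 756 FPKM, above the hyperoxia median of 559 FPKM. The part of neutrophils in the level of Sod2 was not tested.

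**Figure D5:**
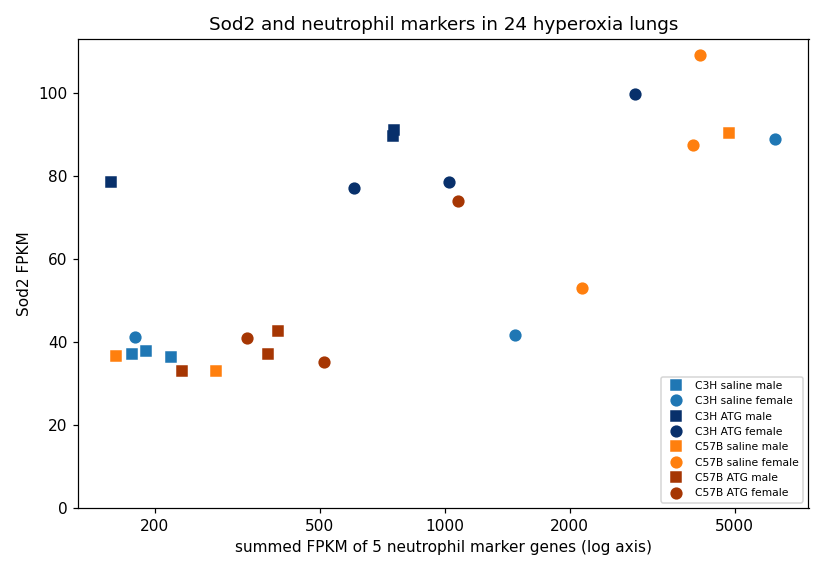
Sod2 FPKM (y axis) against the summed FPKM of the 5 neutrophil markers S100a8, S100a9, Retnlg, Cxcr2 and Csf3r (x axis, log scale) in the 24 hyperoxia lungs, by strain, injection and sex. The 6 C3H ATG lungs have Sod2 at 77.1 to 99.7 FPKM with sums from 157 to 2880, and the 4 lungs with the highest sums have Sod2 at 87.5 to 109 FPKM.

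The genes around these enzymes were described from lists, by how many of those tested passed in hyperoxia against room air in saline mice. The median change of all genes was 0.01, and of all genes 31.8% rose and 28.3% fell, which is the background to each count here. Among proteins that supply metal or import the enzymes, 5 of 10 rose and 1 fell, with a median of 0.29. Slc39a14, a zinc, iron and manganese importer, rose by 2.70 (SE 0.14), and Pex14 and Pex5, which import peroxisomal proteins, rose by 0.64 and 0.62. Ccs, the chaperone that loads copper into Sod1, fell by 0.58 (SE 0.10, limma adjusted p = 6.22e-05). Among transcription factors known to act on the 4 genes, 6 of 10 rose and 1 fell, with Cebpb at 0.90, Rela at 0.81, Pparg at 0.74 and Ppargc1a at 0.73. All 10 NF-kappaB inducible genes rose, with a median of 1.2, among them Ccl2 at 4.55, Cxcl1 at 4.09, Cxcl2 at 2.76 and Tnfaip3 at 1.29.

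Of 11 other enzymes that remove peroxide, 5 rose and 3 fell, where 60.1% of all genes passed in either direction. Gpx2, a glutathione peroxidase of epithelia, rose by 2.23 (SE 0.24), while Gpx8 fell by 0.78, Prdx2 by 0.74 and Gpx7 by 0.59. Of 33 peroxisomal proteins 6 rose and 12 fell, with a median of -0.16. Pxmp2 fell by 1.80, Pxmp4 by 1.07 and the thiolase Acaa1b by 1.00. Of 14 mitochondrial proteins 7 rose and 3 fell, with the chaperones Hspa9 at 1.99 and Hspd1 at 0.75, the citric acid cycle enzyme Idh3a at 0.76 and the protease Lonp1 at 0.70. Of 6 superoxide-producing enzymes tested, 3 rose and 1 fell, with Nox4 at -1.26, Xdh at 0.94 and Cyba at 0.21. With 31.8% of all genes higher and 28.3% lower, nothing particular to the peroxisomal or mitochondrial list is read from these counts.

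In the strain difference of the hyperoxia effect in ATG mice, where Sod2 passed, 8 of 10 NF-kappaB inducible genes passed with a higher change in C3H, and none of the 10 genes for metal supply and import did. Of all genes 13.3% passed there, 8.27% with a higher change in C3H. In the strain by ATG difference in hyperoxia, where 0.416% of all genes passed, 2 of 10 NF-kappaB inducible genes passed and 2 of the 10 for metal supply and import. These were Bcl3 at 1.68 (limma adjusted p = 0.0396), Nfkb2 at 1.18 (limma adjusted p = 0.03), Slc39a14 at 1.49 (limma adjusted p = 0.0142) and Slc39a8, also a manganese and zinc importer, at 0.91 (limma adjusted p = 0.0114). They are named because no other genes of the pair of lists passed, and they were chosen after their values were seen. Sod2 at 1.47 had a change of like size to Slc39a14 and did not pass.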

How the data were processed

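RNA of 48 mouse lungs was sequenced by the authors (polyA selected, paired reads, directional per the labels). Per the labels and the paper, reads were aligned to mm10 with GSNAP (named in the submitters' processing notes), and SAMtools and Cufflinks gave the FPKM values that the authors deposited in 1 table of 47561 genes. The annotation release and the handling of reads with several matches are not given in the sources used here.

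The limma package (3.58.1, R 4.3.3) was run on log2(FPKM + 1) with lmFit and eBayes (trend on), keeping genes that reached 1 FPKM in 3 or more of the lungs in the fit. P-values were Benjamini-Hochberg adjusted over all genes tested, at 0.05. Group means were fitted in the mice each comparison uses. Hyperoxia against room air in ATG mice was planned. The other contrasts among ATG mice and the contrast of strain, air and injection were added after seeing the data. The comparison of the strains in saline hyperoxia mice was not planned either. Single values were compared with exact two-sided permutation tests (SciPy 1.17.1), and 95% confidence intervals are from limma. Exact tests were planned for hyperoxia in saline mice, ATG in room air and strain at baseline, and the others were not planned. Akap5 was left out for failed estimates. Since FPKM carries no depth, counting error was not estimated. The fits were tested on simulated data. Median ratio scaling divides each lung by its median ratio to the geometric means of the genes.

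The alternatives were a pseudocount of 0.1, no filter, no trend, quantile normalization, median ratio scaling, all 48 mice in 16 groups and leaving out each mouse. The members and lists were chosen with earlier results of these data known. Named genes were the 4 members, up to 4 genes per list with the largest change past the threshold in hyperoxia, and the 3 transcripts most like each member. Some genes that this rule names are not reported here. The lists held metal supply and import, transcription factors, other peroxide-removing enzymes, superoxide-producing enzymes, peroxisomal and mitochondrial proteins, NF-kappaB inducible genes and markers of 14 cell types. Promoters are from RefSeq, which matched 3 of the 4 members.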

Additional observations from a re-analysis of the deposited data

Results flagged for a closer look

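In 32 groups of 6 mice of 1 strain, injection and air, 3 had a lung whose gap to the nearest other lung was large against the range of the group by Dixon's ratio (95% critical value for groups of 6). Chance flags about 1 in 20 groups. Sod2 in C3H saline hyperoxia had a ratio of 0.902, from the female mouse 33 at 88.9 FPKM. Sod2 in C57B ATG hyperoxia had a ratio of 0.764, from the female mouse 48 at 73.9 FPKM, and Sod3 in the same group had 0.747, from the same mouse at 29.6 FPKM. Mouse 48 thus had the highest Sod2 and the lowest Sod3 of its 6 lungs.

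Of 36 differences of an effect between groups computed for the 4 members, 10 had an unadjusted limma p under 0.05. Over all genes, such a p was found for 4571 of 16321 for hyperoxia by strain in saline mice and 4617 of 16206 in ATG mice. For hyperoxia by sex it was found for 2964 of 16321 in saline mice and 1455 of 16206 in ATG mice. It was found for 2110 of 15860 for ATG by strain in hyperoxia and 1673 of 16994 for the contrast of strain, air and injection. Between strains, the hyperoxia effect in saline mice differed by 0.41 for Sod1 and by 0.72 for Sod3 (C3H minus C57B), and that in ATG mice by 0.40 for Sod1, 0.97 for Sod2 and 0.84 for Sod3. Between sexes, the hyperoxia effect in saline mice differed by 0.50 for Cat (male minus female), and that in ATG mice by 0.46 for Sod3 and 0.32 for Cat. The ATG effect on Sod2 in hyperoxia differed by 1.47 between strains, and the contrast of strain, air and injection was 1.57 for Sod2. Of the 10, only the differences of 0.97 for Sod2 and 0.84 for Sod3 in ATG mice passed after adjustment over all genes, with limma adjusted p-values of 0.00161 and 0.00724.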

How the results depend on the processing

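Of the planned repeats of results for members and counts of calls, 1860 kept their direction and their side of the threshold, 54 gained a call or rose in count, 42 lost one or fell in count and 44 changed sign, mostly for differences near 0. No paired analysis was possible because each mouse has its own number. FPKM gives no depth, and 6 mice a group limit what can be told apart.

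With quantile normalization Sod3 for sex was -0.0495, Sod1 for strain by sex 0.0196 and Sod1 for hyperoxia by strain 0.445 (called). With median ratio scaling Cat for sex was 0.0397, Sod1 and Cat for strain by sex 0.112 and 0.0672, Sod1 for hyperoxia by sex -0.141, Sod1 for ATG in room air -0.0169 and Cat for ATG by strain in room air -0.0098, and hyperoxia by sex called 2 genes. With all 48 mice in 1 fit Sod1 and Sod3 for hyperoxia by strain were 0.411 and 0.719 and Sod2 for ATG by strain in hyperoxia 1.47, all called, and calls were 2982 for strain, 1915 for sex, 748 for strain by sex, 2994 for hyperoxia by strain, 306 for hyperoxia by sex and 234 for ATG by strain in hyperoxia. Without the filter calls were 40 for sex, 2 for strain by sex, 5 for ATG in room air, 2 for ATG by strain in room air and 313 for hyperoxia by ATG. Strain by sex called 5 genes with a pseudocount of 0.1 and 2 without the trend. The cause was not tested.

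With each mouse left out in turn, Sod1 ranged over -0.011 to 0.042 for ATG in room air, -0.0405 to 0.0894 for hyperoxia by sex, 0.349 to 0.479 for hyperoxia by strain and -0.149 to 0.0598 for strain by sex. Sod2 ranged over 1.24 to 1.65 for ATG by strain in hyperoxia and 0.133 to 0.234 for strain over all mice. Sod3 ranged over -0.0194 to 0.178 for ATG by strain in room air, -0.112 to 0.0651 for ATG in hyperoxia, -0.00127 to 0.0976 for ATG in room air, -0.162 to 0.0154 for hyperoxia by ATG, 0.562 to 0.911 for hyperoxia by strain, -0.0811 to 0.11 for sex and -0.0529 to 0.145 for strain at baseline. Calls were 37 to 302 for ATG by strain in hyperoxia, 0 to 17 for it in room air, 443 to 1096 for ATG in hyperoxia, 3 to 32 for it in room air, 243 to 1093 for hyperoxia by ATG, 2 to 1270 for hyperoxia by sex, 1400 to 3242 for hyperoxia by strain, 20 to 3640 for sex, 1306 to 4021 for strain at baseline and 0 to 2741 for strain by sex.

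The median change over all genes went, with median ratio scaling, from -0.12 to -0.01 for sex, from -0.15 to -0.01 for strain by sex, from 0.15 to 0.00 for hyperoxia by strain and from 0.14 to 0.01 for hyperoxia by sex. Scaling moved the split of higher against lower calls, which was 609 and 1223 for strain at baseline against 929 and 1008 with median ratio scaling and 974 and 930 with quantile normalization. In the same order it was 37 and 67 for sex against 37 and 38, and 53 and 43, and 1422 and 458 for hyperoxia by strain against 926 and 1066, and 862 and 893. It was 5 and 1 for hyperoxia by sex against 1 and 1, and 1 and 3. It was 617 and 251 for ATG in hyperoxia against 262 and 377, and 350 and 418, and 265 and 205 for hyperoxia by ATG against 177 and 363, and 182 and 342.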
